A study of Mus musculus with 11 samples.

Results

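Cytochrome c oxidase (complex IV) is the last enzyme of the mitochondrial respiratory chain and passes electrons from cytochrome c to oxygen. Its catalytic core is encoded in the mitochondrial genome, and around it sit small subunits that are encoded in the nucleus. Some of these small subunits exist as pairs of isoforms made from separate genes: one gene is read in most tissues, and its partner is read mainly in muscle, brown fat or lung. The 9 genes described here are those of the subunit 4, 6a, 7a and 8 families, and they were chosen by name from the 38393 genes listed in each library. Cox6a2, Cox7a1 and Cox8b are the isoforms known from skeletal muscle, heart and, for Cox7a1 and Cox8b, brown fat. Cox6a1, Cox7a2 and Cox8a are their widely expressed partners. Cox4i2, known from lung, and Cox4i1 form a further pair, and Cox7a2l encodes a protein related to subunit 7a.

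RNA was sequenced from the eyes of C57BL/6 mice aged 1 to 2 months, 5 wild type (WT) and 6 homozygous for the deletion of miR-211 (KO), one library per sample. The lens and cornea had been taken off, which left retina, RPE, choroid, sclera and ciliary body, and the labels name no treatment. The KO line lacks the miR-211 precursor in every cell, and the study's comparison asks how its loss alters the transcriptome before cones are lost. Per the study's methods the WT animals were littermates of matched age, 3 of them female, and all KO animals were male. The files hold 20282241 to 36317673 assigned read pairs per library (median 23769826), and all 9 isoform genes were among the 15767 genes tested.

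Several facts about the libraries bear on these genes. The column names of the study's supplementary table place WT replicates 1 and 2 and KO replicates 1 to 3 in a series named by mouse number, and the other 6 libraries in a series named by age. Mir211 had a count of 0 in all 11 libraries, so that these counts do not check the deletion, and its host gene Trpm1 stood at 430.1 ± 67.2 CPM (counts scaled to the library's TMM-adjusted total; SD, n = 5) in WT and 432.9 ± 19.1 CPM (n = 6) in KO. Lens and cornea transcripts went against the stated dissection. The summed lens list (Cryaa, Crybb2, Cryba1, Lim2 and Mip) reached 69754 CPM in WT replicate 4, 20557 in KO replicate 3 and 2942 in KO replicate 6, against 2.94 to 54.7 CPM in the other 8 libraries. The cornea list (Krt12, Krt5, Krt14 and Aldh3a1) summed to 1077 CPM or more everywhere. Within it Krt12 ran from 4.26 to 3038 CPM in WT and from 598.8 to 3514 CPM in KO, so that a high sum did not always come with a high Krt12. Xist, read from the inactive X chromosome, was at 795.6 CPM or more in WT replicates 1, 3 and 5 and at 1.29 CPM or less in the other 8 libraries, so that sex and genotype cannot be fully told apart.

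The nuclear genes of a pair are separate loci with clearly different sequences, which is what allows reads to be assigned to one isoform or the other. On GRCm38, Cox6a2 lies on chromosome 7 from 128205435 to 128206387, Cox7a1 on chromosome 7 from 30184144 to 30186078 and Cox8b on chromosome 7 from 140898945 to 140900446. Their partners lie elsewhere, Cox6a1 on chromosome 5 from 115345642 to 115348981, Cox7a2 on chromosome 9 from 79755361 to 79759878 and Cox8a on chromosome 19 from 7215153 to 7217616. The coding sequences of Cox8a and Cox8b, taken from the Gencode transcripts of GRCm38, are shown because this pair is the least alike of the 4. Capitals mark the longest run of identical bases in their alignment.
Cox8a: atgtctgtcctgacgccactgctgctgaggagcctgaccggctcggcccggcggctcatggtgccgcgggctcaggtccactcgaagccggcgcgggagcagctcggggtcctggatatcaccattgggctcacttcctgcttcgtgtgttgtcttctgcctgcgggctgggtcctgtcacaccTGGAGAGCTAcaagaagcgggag
Cox8b: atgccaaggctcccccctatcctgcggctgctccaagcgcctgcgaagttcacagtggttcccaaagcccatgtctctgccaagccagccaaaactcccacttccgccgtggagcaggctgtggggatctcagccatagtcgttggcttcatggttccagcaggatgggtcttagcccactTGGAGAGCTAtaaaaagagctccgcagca
These sequences of 207 and 210 bases were identical in 52.8% of alignment columns, and the longest shared run was 10 bases, far below the read length of 100 nt. For the other pairs identity was 56.2% (Cox6a2 and Cox6a1, longest run 12 bases), 59.8% (Cox7a1 and Cox7a2, 12 bases) and 62.7% (Cox4i2 and Cox4i1, 14 bases). Cox7a2l was identical to Cox7a2 in 47.8% of columns. The coding sequences and not whole transcripts or pseudogenes were compared, so reads from the remaining parts were not covered by this check.

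Cox6a2, Cox7a1 and Cox8b differed between libraries by 7.98-fold to 11.7-fold, and their partners by less than 2-fold. Cox6a2, the muscle isoform of subunit 6a, was read at 144.1, 95.1, 13.5, 59.0 and 33.1 CPM in WT replicates 1 to 5 and at 100.5, 53.6, 21.96, 32.4, 13.2 and 31.6 CPM in KO replicates 1 to 6. Cox7a1 was at 47.9, 36.1, 4.10, 17.3 and 9.57 CPM in WT and at 35.3, 23.7, 9.54, 9.93, 4.91 and 9.10 CPM in KO. Cox8b was at 79.7, 49.6, 13.2, 31.2 and 18.6 CPM in WT and at 45.7, 30.0, 18.8, 15.7, 9.99 and 19.3 CPM in KO. WT replicate 1 held the highest level of each, WT replicate 2 and KO replicate 1 came next, and WT replicate 3 and KO replicate 5 held the lowest levels, so that the genotypes overlapped for each of these genes.

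**Figure D1:**
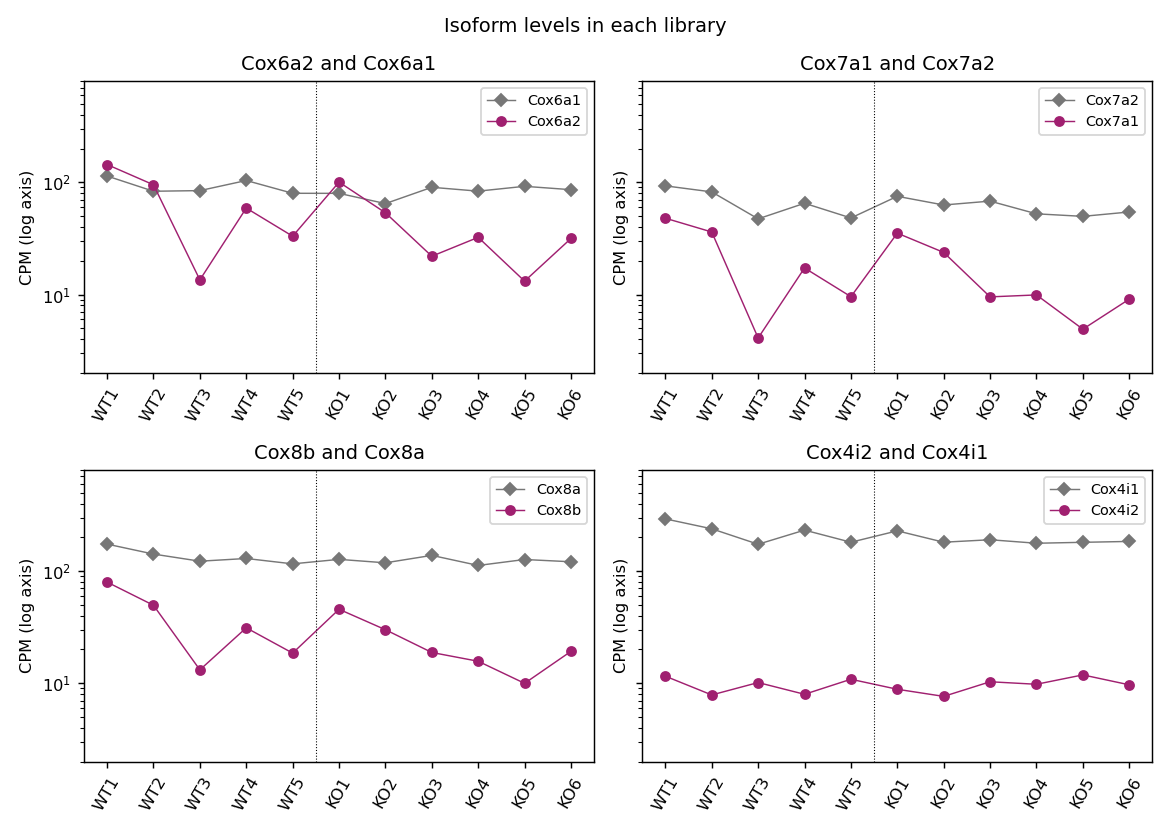
CPM (log axis) of each tissue isoform (circles) and its widely expressed partner (diamonds) in the 5 WT and 6 KO libraries, which a dotted line separates; lines join the libraries for legibility only. Cox6a2, Cox7a1 and Cox8b fall together in WT replicate 3 and KO replicate 5, while Cox7a2, the most variable of the other genes shown, stays between 47.3 and 93.1 CPM.

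The partners moved far less. Cox6a1 was at 113.9, 83.3, 84.4, 103.9 and 79.9 CPM in WT and between 64.7 and 92.2 CPM (median 84.8) in KO. Cox7a2 was at 93.1, 82.2, 47.3, 65.1 and 48.2 CPM in WT and between 49.8 and 75.1 CPM (median 58.7) in KO. Cox8a was at 173.9, 141.7, 122.4, 129.4 and 115.9 CPM in WT and between 112.2 and 138.0 CPM (median 123.9) in KO. The highest library exceeded the lowest by 10.9-fold for Cox6a2, 11.7-fold for Cox7a1 and 7.98-fold for Cox8b, and by 1.44-fold to 1.97-fold for the other 6 genes. On the log2 CPM scale the SD over all 11 libraries was 1.15 for Cox6a2, 1.18 for Cox7a1 and 0.91 for Cox8b, larger than that of 97.9%, 98.2% and 95.5% of the genes tested. The corresponding median over all tested genes was 0.20, and the other 6 members had SDs of 0.18 (Cox8a, larger than 43.2% of genes) to 0.33 (Cox7a2, larger than 76.5%).

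Cox4i1 and Cox4i2 are the isoforms of the regulatory subunit 4. Cox4i1 (chromosome 8, 120668222 to 120674207) was at 291.7, 238.0, 173.4, 231.7 and 180.7 CPM in WT and between 177.0 and 228.3 CPM (median 182.2) in KO. Its 5′ end overlaps Emc8 on the opposite strand, a gene at up to 101.7 CPM, and the library kit named in the labels does not mark strand, so that reads in the overlap cannot be told apart. Gm20388, which overlaps Cox4i1 on the same strand, was at up to 15.9 CPM, and Itgad, which overlaps Cox6a2 on the opposite strand, at up to 0.328 CPM. Cox4i2 (chromosome 2, 152754173 to 152765037) was at 11.6, 7.87, 10.1, 7.98 and 10.9 CPM in WT and between 7.64 and 11.9 CPM (median 9.74) in KO. Cox7a2l (chromosome 17, 83501918 to 83517330) was at 111.5, 124.0, 89.1, 110.1 and 100.7 CPM in WT and between 87.3 and 125.8 CPM (median 105.6) in KO. All 3 genes overlapped between genotypes. Cox4i2 was highest in KO replicate 5, the library lowest in Cox6a2, and next in WT replicate 1, the library highest in Cox6a2.

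Levels of different genes were compared in FPKM, which is scaled by effective transcript length. The order over all libraries was Cox4i1 (297.6 ± 48.6 FPKM, SD, n = 11), Cox8a (263.8 ± 33.8), Cox6a1 (168.4 ± 22.6), Cox7a2l (103.2 ± 12.2), Cox8b (97.0 ± 66.1), Cox7a2 (90.3 ± 20.2), Cox6a2 (88.8 ± 68.4), Cox7a1 (60.2 ± 47.0) and Cox4i2 (14.4 ± 2.60). Cox8a stood above Cox6a1, Cox6a1 above Cox7a2l and Cox6a2 above Cox7a1 in all 11 libraries. The other neighbours changed places in at least 1 library. The gaps between the means of Cox8a and Cox6a1 and of Cox6a1 and Cox7a2l were wider than the larger SD of the 2 genes, and each other gap between neighbours was within it. Cox7a1 and Cox8b have annotated transcripts of only 393 and 360 bases, against 550 to 1076 for the others, and the fragments that the labels describe are not much shorter than these, so that their FPKM depends strongly on RSEM's estimate of effective length.

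The isoform share, the tissue isoform's part of the FPKM of its pair, differed widely between libraries. Cox6a2 made up 52.1, 49.5, 12.1, 32.8 and 26.2% of the Cox6a pair in WT and between 10.9 and 51.9% in KO. Cox7a1 held between 16.4 and 53.6% of its pair in WT and between 18.3 and 51.6% in KO. Cox8b held between 14.7 and 42.1% in WT and between 11.2 and 36.5% in KO. The tissue isoform exceeded its partner in 2 of 11 libraries, WT replicate 1 and KO replicate 1, for Cox6a2 and for Cox7a1, and in 0 of 11 for Cox8b. Cox4i2 held 3.26 to 6.26% of its pair.

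**Figure D2:**
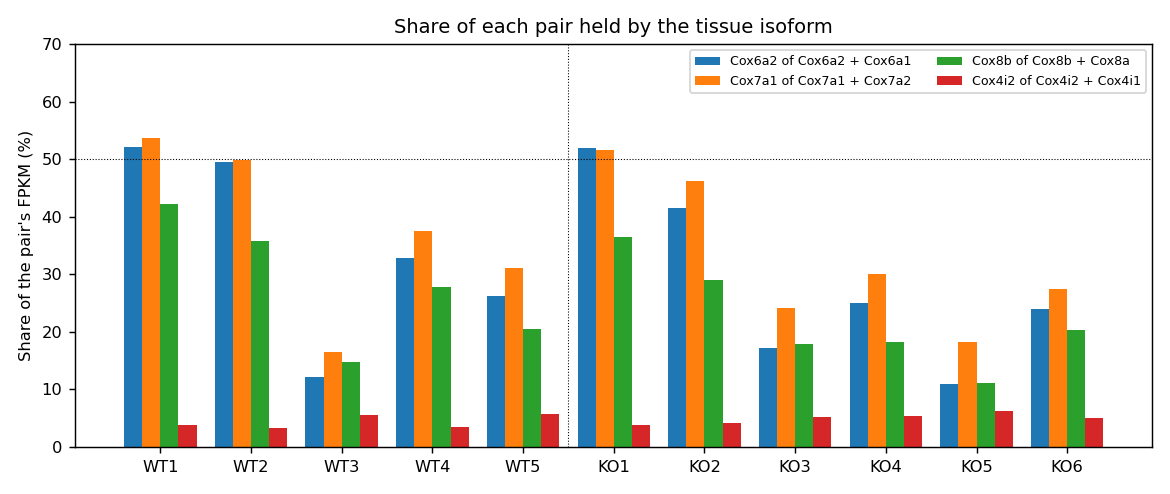
Share of each pair's summed FPKM (percent) held by the tissue isoform, as bars for the 5 WT and 6 KO libraries; dotted lines mark 50% and the border between genotypes. Cox6a2 and Cox7a1 pass 50% in WT replicate 1 and KO replicate 1, Cox8b stays at 42.1% or less, and Cox4i2 at 6.26% or less.

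Cox6a2, Cox7a1 and Cox8b followed one another and the genes of skeletal muscle. Over the 11 libraries, which differ in sequencing depth and series, the log2 CPM of Cox6a2 and Cox7a1 had a Pearson r of 0.98, and each had an r of 0.97 with Cox8b. The corresponding r with the partner was 0.16 for Cox6a2 and Cox6a1, 0.90 for Cox7a1 and Cox7a2 and 0.69 for Cox8b and Cox8a, and it was -0.11 for Cox4i2 and Cox4i1. Cox4i1 had an r of 0.85 with Cox6a2, 0.82 with Cox7a1 and 0.90 with Cox8b, and Cox4i2 had -0.42, -0.45 and -0.36. All 3 partners were highest in WT replicate 1. Cox7a2 and Cox8a came next in WT replicate 2, whereas Cox6a1 was lowest in KO replicates 2 and 1.

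The skeletal muscle list of 18 genes (Acta1, Ckm and Mylpf first) holds contractile proteins, muscle enzymes and calcium-handling proteins. Its summed level ran from 1825 to 14882 CPM in WT (median 8304) and from 1514 to 14406 CPM in KO (median 3746), with all 18 genes read in every library. WT replicate 1 and KO replicate 1 were highest, KO replicate 5 and WT replicate 3 lowest. Myh13, a myosin of the extraocular muscles, ran from 1.12 to 290.9 CPM in WT and from 2.32 to 346.7 CPM in KO. The mean log2 CPM of the list had a Pearson r of 0.98 (Spearman 0.99) with Cox6a2, 0.98 (Spearman 0.96) with Cox7a1 and 0.95 (Spearman 0.91) with Cox8b (n = 11). The permutation p for each r was 1e-05, the smallest that 100000 resamples can give, and 2e-05 after Benjamini-Hochberg adjustment over 6 relations. For the Spearman coefficients the permutation p was 1e-05, 3e-05 and 0.00033 (adjusted 6e-05, 9e-05 and 0.000396). Without the 2 libraries farthest from the median, WT replicate 1 and KO replicate 1, r was 0.99, 0.98 and 0.96 (n = 9). Within the 6 libraries of the age series it was 0.99, 0.98 and 0.94 (exact permutation p = 0.00139, 0.0111 and 0.00833), and the 5 libraries of the mouse-number series were too few for a correlation. What part the muscle content has in the isoform levels was not tested, and in whole-eye RNA fewer cells of a type and less RNA per cell cannot be told apart.

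Brown fat genes were high in 4 libraries, all of them among the 5 libraries highest in the muscle genes. The brown adipocyte list was Ucp1 (the uncoupling protein), Cidea (a lipid droplet protein), Elovl3, Otop1, Prdm16 and Adrb3, of which Cidea and Prdm16 passed the filter. Its sum fell into separate groups of libraries: 54.1, 73.6, 54.8 and 104.6 CPM in WT replicates 1, 2 and 4 and KO replicate 1, and 14.9 to 19.5 CPM in the other 7. Ucp1 reached 40.3 CPM in WT and 23.3 CPM in KO, with a median of 0.11 CPM in KO. Elovl3 was at 0 in some libraries of each genotype and went the other way in its highest level, 37.2 CPM in KO against 1.30 CPM in WT. KO replicate 2 had a list sum of 15.1 CPM beside 53.6 CPM of Cox6a2, 23.7 CPM of Cox7a1 and 30.0 CPM of Cox8b, each among the 5 highest levels of its gene. By the mean log2 CPM of Cidea and Prdm16, however, KO replicate 2 was the highest of the 7 libraries with low sums, at 2.34. The relation had been planned over all 11 libraries, but because of these groups, seen in the data, no pooled correlation is given. In the 7 libraries with low sums most of the sum was Prdm16, which was at 12.3 CPM or more in every library. Cidea was low, with a median of 1.45 CPM and a lowest level of 0.865 CPM in KO. The mean log2 CPM of Cidea and Prdm16 spanned a narrow range in these 7 libraries, from 1.90 in WT replicate 3 to 2.34 in KO replicate 2. Within the 7 libraries with low sums, the mean log2 CPM of Cidea and Prdm16 had an r of 0.91 (Spearman 0.79) with Cox6a2, 0.89 (Spearman 0.96) with Cox7a1 and 0.80 (Spearman 0.64) with Cox8b. The exact permutation p for r was 0.00714, 0.000397 and 0.0206 (Benjamini-Hochberg adjusted over 6 relations 0.00857, 0.00119 and 0.0206), and for the Spearman coefficients 0.0480, 0.00278 and 0.139 (adjusted 0.0720, 0.00833 and 0.139). In the same 7 libraries r with the skeletal muscle list was 0.97, 0.97 and 0.93. The 2 lists changed together across libraries, and their parts were not tested separately.

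**Figure D3:**
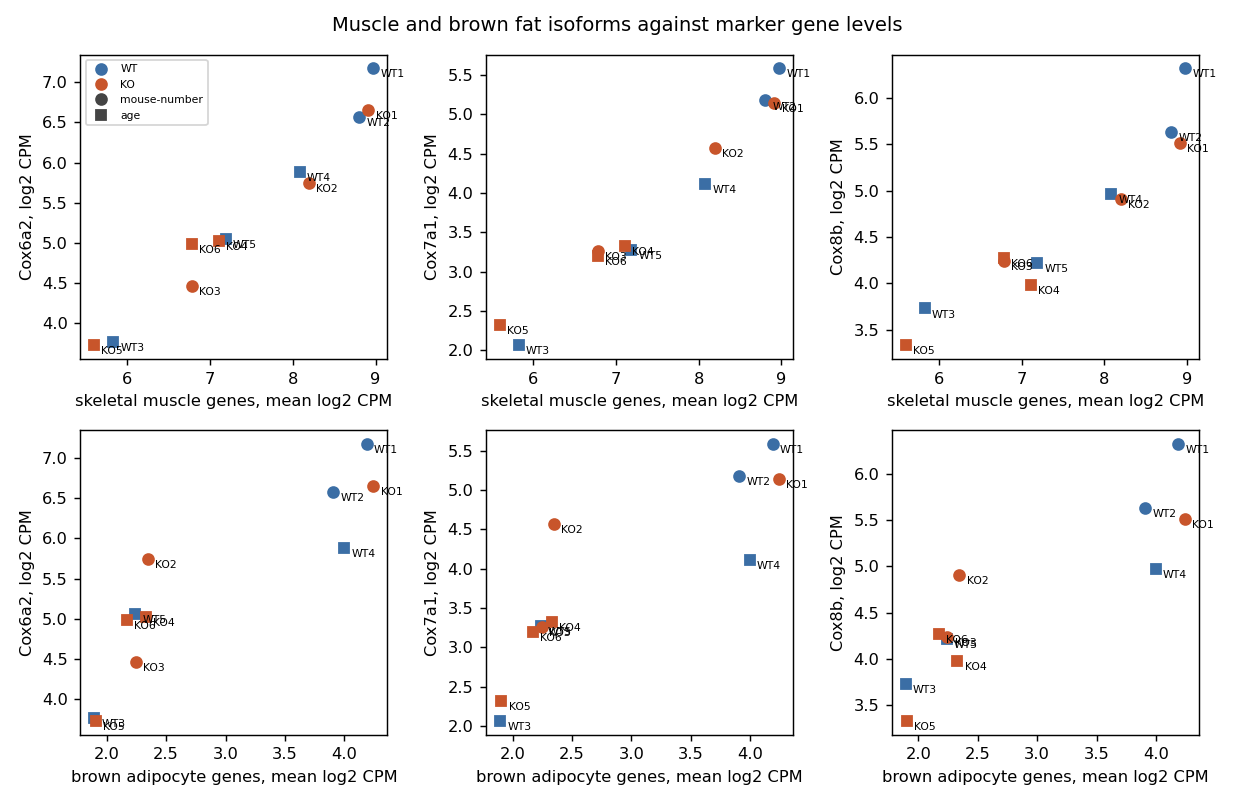
Log2 CPM of Cox6a2, Cox7a1 and Cox8b against the mean log2 CPM of 18 skeletal muscle genes (top) and of Cidea and Prdm16 (bottom), one point per library, with WT in blue, KO in red, circles for the mouse-number and squares for the age series. The isoforms rise with the muscle genes over the whole range. KO replicate 2 lies above the other libraries with low brown fat sums and has the highest mean of Cidea and Prdm16 among them.

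The genes whose log2 CPM was most like that of each tissue isoform were ranked by Pearson r over all tested genes. For Cox6a2 they were Des (desmin, the muscle intermediate filament, r = 0.99), Trim54, Slc2a4 (the insulin-regulated glucose transporter), Art1 and Ckmt2 (a mitochondrial creatine kinase of muscle), each with an r of 0.99. For Cox7a1 they were Hrc (a calcium-binding protein of the sarcoplasmic reticulum), Unc45b (a myosin chaperone), Eno3 (the muscle enolase), Ddit4l and Ckmt2, each with an r of 0.99. For Cox8b they were Hadhb (a subunit of the enzyme of mitochondrial fatty acid oxidation, r = 0.99), Fitm1, Vamp5, Ppp2r5a and Ndufs3 (a complex I subunit, r = 0.98). For Cox4i2 they were Qrfpr (r = 0.92), Nat14 (0.92), Porcn (0.91), Prdm8 (0.90) and St6galnac5 (0.90). These are descriptions over the same 11 libraries, which differ in depth and series. The cardiac muscle list (Myh6, Tnnt2, Tnni3, Nppa and Myl7) summed to between 2.96 and 13.4 CPM, highest in WT replicate 1. The list of pericyte and smooth muscle genes (Kcnj8, Abcc9, Higd1b and 7 others), cells of the vessel wall, summed to between 397.1 and 641.8 CPM. The sum was highest in WT replicate 4, which had the third-lowest Cox4i2 level. By mean log2 CPM the same list was highest in WT replicate 1, at 5.01 against 4.82 in WT replicate 4. Cox4i2 in WT replicate 1 was at 11.6 CPM, next to its highest level.

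The stretches before the transcription starts of Cox7a1 and Cox8b, which moved together, and of their partners Cox7a2 and Cox8a are shown for comparison. They come from the RefSeq promoter table of GRCm38.p6, which holds 6 of the 9 genes, and end before the first base transcribed in either annotation. Capitals mark matches on either strand to any of the motifs searched: the E-box CANNTG bound by basic helix-loop-helix factors and its form CAGCTG, the GC box GGGCGG, the CCAAT box, the Ets motif CCGGAA, the half-site TGCGCA of NRF1, and MEF2.
Cox7a1, chr7:30183921-30184143, plus strand: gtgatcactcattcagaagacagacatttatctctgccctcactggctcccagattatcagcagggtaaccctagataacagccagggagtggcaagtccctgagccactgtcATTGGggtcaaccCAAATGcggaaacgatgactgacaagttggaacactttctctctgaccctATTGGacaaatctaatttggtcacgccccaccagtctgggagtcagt
Cox8b, chr7:140900447-140900696, minus strand: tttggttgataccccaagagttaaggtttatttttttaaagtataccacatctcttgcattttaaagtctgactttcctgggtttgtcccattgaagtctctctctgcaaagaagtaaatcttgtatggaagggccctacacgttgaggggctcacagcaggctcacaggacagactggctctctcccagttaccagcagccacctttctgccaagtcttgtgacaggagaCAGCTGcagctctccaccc
Cox7a2, chr9:79759879-79760103, minus strand: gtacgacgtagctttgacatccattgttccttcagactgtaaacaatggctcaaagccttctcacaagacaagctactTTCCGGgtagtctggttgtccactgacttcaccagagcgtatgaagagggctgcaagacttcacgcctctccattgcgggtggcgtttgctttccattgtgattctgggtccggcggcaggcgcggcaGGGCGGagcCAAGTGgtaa
Cox8a, chr19:7217617-7217866, minus strand: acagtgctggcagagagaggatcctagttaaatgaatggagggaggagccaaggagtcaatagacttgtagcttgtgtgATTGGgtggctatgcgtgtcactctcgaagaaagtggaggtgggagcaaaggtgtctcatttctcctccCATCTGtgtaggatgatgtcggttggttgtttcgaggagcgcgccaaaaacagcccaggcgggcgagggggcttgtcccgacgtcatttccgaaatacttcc
Of the 32851 promoters in the table, 66.2% held CANNTG in the 250 bases before the start, 32.7% GGGCGG, 33.8% CCAAT, 6.43% TGCGCA and 2.92% MEF2. Of the same 32851, 4271 held CAGCTG, which is also a CANNTG match, and 3952 held CCGGAA. Cox8b held CAGCTG once, 19 bases before the start. Cox7a1 held CCAAT 2 times on the reverse strand and a CANNTG match between them. Cox7a2 held a CANNTG match and, once each, GGGCGG and CCGGAA, and Cox8a held CCAAT and a CANNTG match. MEF2 and TGCGCA had no match in these 4 windows. A match describes letters only and is no binding site.

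In the comparison of genotypes, 0 of the 9 isoform genes were called, beside 0.00634% of all tested genes (edgeR likelihood-ratio test, Benjamini-Hochberg adjusted p under 0.1), the single called gene being Xist. No isoform gene had an unadjusted p under 0.05, beside 2.09% of all genes, and none had groups that did not overlap, beside 0.184%. All 9 log2 fold changes (KO minus WT) were below 0, where 48.9% of all genes were, and their median was -0.17 against 0.0027 over all genes. All 9 were measured in the same 11 libraries and several of them were correlated, so that their common sign is not that of 9 separate measurements.

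Cox8b had the lowest estimate, a log2 fold change of -0.73 (SE 0.47, adjusted p = 1.00 by edgeR), from 38.4 ± 27.0 CPM in WT (SD, n = 5) to 23.2 ± 12.8 CPM in KO (n = 6). Cox6a2 gave -0.71 (SE 0.58), from 69.0 ± 51.9 to 42.2 ± 31.6 CPM, and Cox7a1 -0.58 (SE 0.62), from 22.995 ± 18.5 to 15.4 ± 11.7 CPM. Among the widely expressed genes, the values were -0.23 (SE 0.15) for Cox4i1, -0.17 (SE 0.13) for Cox6a1, -0.15 (SE 0.20) for Cox7a2 and -0.14 (SE 0.12) for Cox8a. Cox4i2 and Cox7a2l were closest to 0, at -0.0021 (SE 0.17) and -0.02 (SE 0.14), and both turned above 0 with library sizes that were not TMM-scaled, at 0.04 and 0.02. The adjusted p was 1.00 for all 9 genes, and exact permutation tests of the mean log2 CPM (two-sided, 462 divisions) gave p = 0.158 for Cox4i1 as the smallest and 0.968 for Cox4i2 as the largest.

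The estimates of the muscle isoforms rested on single libraries. Without WT replicate 1 the log2 fold changes of Cox6a2, Cox7a1 and Cox8b were -0.25, -0.12 and -0.28, and without KO replicate 1 they were -1.17, -1.001 and -1.03. Without KO replicate 1, Cox6a2 and Cox8b had unadjusted p-values of 0.0348 and 0.0260 (edgeR), beside 4.35% of all genes under 0.05. Without WT replicate 3, Cox4i1 and Cox8b had 0.0415 and 0.0359, beside 4.02% of all genes. Adjusted p-values of the 9 genes stayed at 0.950 or more in both. Within the mouse-number series the log2 fold changes of Cox6a2, Cox7a1 and Cox8b were -1.03, -0.88 and -1.04, with unadjusted p-values of 0.0782, 0.0819 and 0.00958 by edgeR, beside 3.27% of all genes under 0.05. Cox7a2 had -0.35 (unadjusted p = 0.0349 by edgeR) there. Within the age series the muscle isoforms had -0.44, -0.36 and -0.47 (unadjusted p = 0.426, 0.496 and 0.201 by edgeR). With the series as a covariate over all 11 libraries Cox8b had -0.74 (unadjusted p = 0.0133 by edgeR), beside 6.57% of all genes under 0.05, and no other isoform gene was under it. A test of the series by genotype interaction gave an adjusted p of 1.00 for each of the 9 genes (edgeR). The 2 WT libraries low in Xist were replicates 2 and 4, and Cox6a2 was at 95.1 and 59.0 CPM in them. Both levels were below KO replicate 1 (100.5 CPM) and above the other KO libraries (53.6 CPM or less). Cox7a1 in WT replicate 2 (36.1 CPM) was above the highest KO level (35.3 CPM), and in WT replicate 4 (17.3 CPM) within the KO range. Cox8b in WT replicate 2 (49.6 CPM) was above the highest KO level (45.7 CPM), and in WT replicate 4 (31.2 CPM) within the KO range. The highest and the lowest WT level of Cox6a2 were both in libraries high in Xist.

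**Figure D4:**
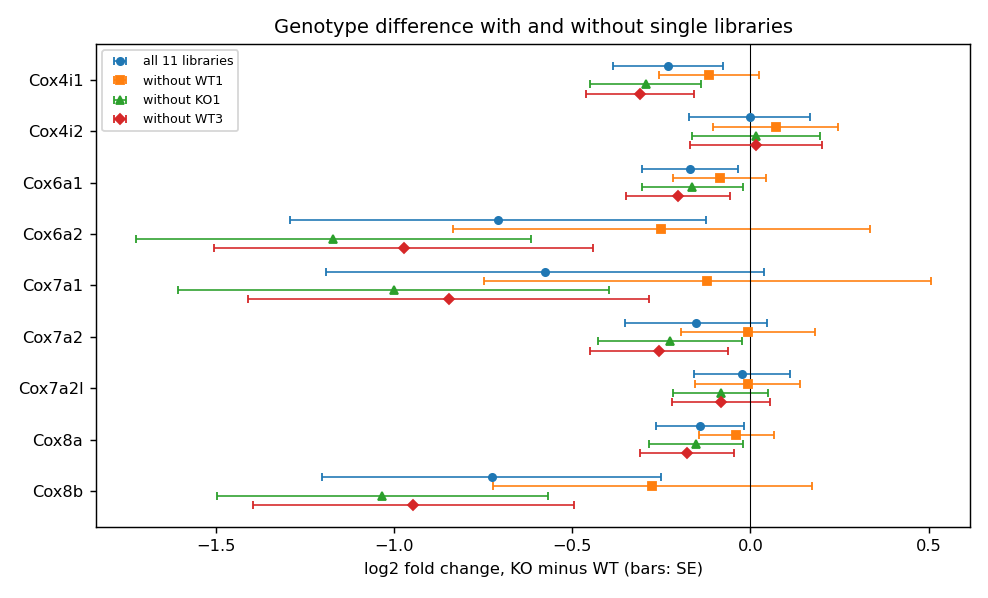
Log2 fold change (KO minus WT) of the 9 genes with SE bars from edgeR, with all 11 libraries and without WT replicate 1, KO replicate 1 or WT replicate 3. Cox6a2, Cox7a1 and Cox8b move from -0.25, -0.12 and -0.28 without WT replicate 1 to -1.17, -1.001 and -1.03 without KO replicate 1, while the other 6 genes stay between -0.31 and 0.07.

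The ratio of isoform to partner within a library does not depend on its depth. The log2 ratio of CPM of Cox6a2 to Cox6a1 was 0.34, 0.19, -2.64, -0.82 and -1.27 in WT and ran from -2.80 to 0.33 in KO, a difference of means of -0.43 (exact permutation test, two-sided, p = 0.558). For Cox7a1 to Cox7a2 the WT ratios were -0.96, -1.19, -3.50, -1.91 and -2.32, those of KO ran from -3.32 to -1.09, and the difference was -0.29 (exact p = 0.617). For Cox8b to Cox8a they were -1.12, -1.51, -3.21, -2.05 and -2.64 in WT and from -3.66 to -1.48 in KO, with a difference of -0.47 (exact p = 0.348). For Cox4i2 to Cox4i1 they were -4.65, -4.90, -4.08, -4.85 and -4.05 in WT and from -4.68 to -3.92 in KO, and the difference was 0.22 (exact p = 0.312). The genotypes overlapped in each of the 4 ratios, whose p-values are unadjusted.

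**Figure D5:**
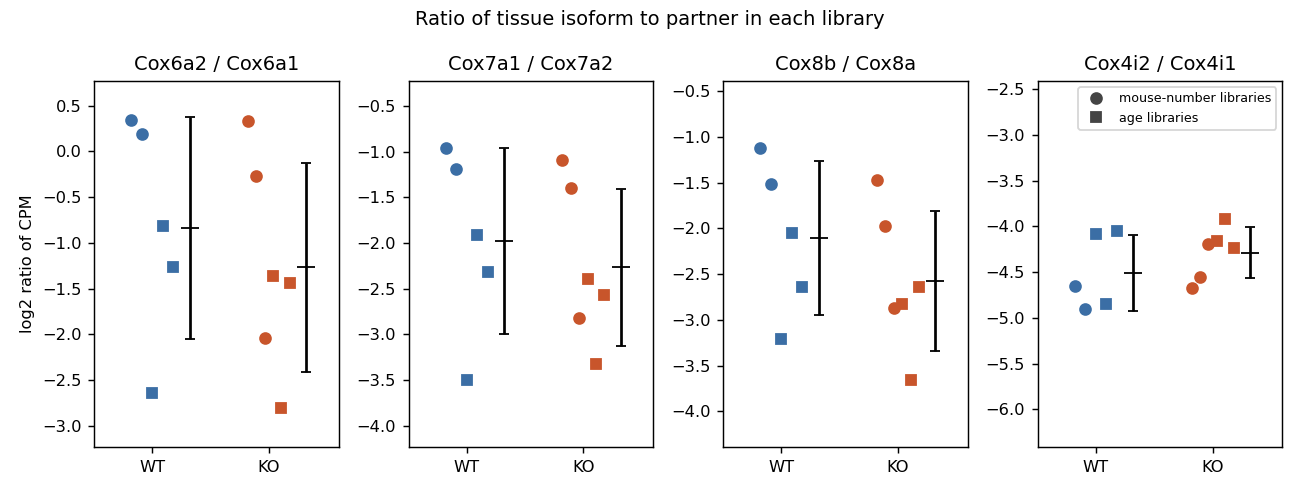
Log2 ratio of CPM of tissue isoform to partner in each library for WT (blue) and KO (red), with circles for the mouse-number and squares for the age series and bars for the mean ± SD; each panel spans 4 log2 units. WT and KO overlap in all 4 ratios, and WT replicate 3 and KO replicate 5 are lowest for Cox6a2 and Cox7a1.

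Within the mouse-number series, where 2 WT against 3 KO libraries allow no p under 0.1, the differences of the Cox6a, Cox7a, Cox8 and Cox4i ratios were -0.92, -0.70, -0.79 and 0.30 (exact p = 0.6, 0.5, 0.3 and 0.3). Within the age series, with 3 libraries each and the same smallest p, they were -0.30, -0.18, -0.41 and 0.22 (exact p = 0.5, 0.7, 0.4 and 0.7). Without WT replicate 1 the Cox7a and Cox8 differences were -0.04 and -0.22, without WT replicate 3 the Cox6a, Cox7a and Cox8 differences were -0.88, -0.67 and -0.74, and without KO replicate 5 the Cox6a difference was -0.12. The Cox4i difference was 0.12 without WT replicate 2 and 0.33 without WT replicate 5.

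The remaining genes of complex IV were described from 3 fixed lists. Of 11 other structural subunit genes (Cox5a, Cox5b, Cox6b1 and 8 more), 9 were tested and 0 had an unadjusted p under 0.05, beside 2.09% of all tested genes. All 9 estimates were below 0, beside 48.9% of all tested genes, with a median log2 fold change of -0.20, from -0.29 for Ndufa4l2 (SE 0.27, unadjusted p = 0.279 by edgeR) to -0.05 for Cox6b2 (SE 0.15). Cox7b2 was at 0.12 CPM or less and Cox8c, an isoform of subunit 8 known from testis, had a count of 0 in all libraries, which allows up to 3 read pairs in each. The list summed to 1048 CPM in WT replicate 1 and 474.1 CPM in WT replicate 3, the same libraries that were high and low for the muscle isoforms. The mitochondrially encoded core subunits mt-Co1, mt-Co2 and mt-Co3 had log2 fold changes of -0.19, -0.14 and -0.17, with sums from 17735 CPM in KO replicate 5 to 38418 CPM in WT replicate 1. Of 23 assembly factors, which insert copper and haem and join the subunits, 22 were tested. Of these 0 had an unadjusted p under 0.05 (2.09% of all genes), and 12 estimates were below and 10 above 0, from -0.26 for Cox14 (SE 0.14, unadjusted p = 0.0610 by edgeR) to 0.20 for Cmc1 (SE 0.17). Their sum changed from 469.1 to 554.0 CPM over the libraries, a much narrower range than that of the structural subunits.

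Marker lists were counted in the same fit, in which 48.9% of all tested genes were below 0 and 2.09% had an unadjusted p under 0.05. All 18 skeletal muscle genes had estimates below 0, their median being -0.54 on the log2 scale, and 0 with an unadjusted p under 0.05, close to the values of Cox6a2, Cox7a1 and Cox8b. Cidea gave -0.79 (SE 1.00) and Prdm16 -0.24 (SE 0.23). Of 8 adipocyte genes (Adipoq, Plin1 and Cidec first), 7 were tested and all were below 0, with a median of -1.94. The secreted proteins Cfd (-2.12, unadjusted p = 0.0371 by edgeR) and Retn (-0.87, unadjusted p = 0.00810 by edgeR) and the lipase Lipe (-0.78, unadjusted p = 0.0377 by edgeR) were under 0.05 before adjustment. The adipocyte sum was highest in WT replicate 1 (482.5 CPM), WT replicate 2 (277.9 CPM) and KO replicate 1 (239.9 CPM), the 3 libraries that led Cox6a2, Cox7a1 and Cox8b. Of 10 pericyte and smooth muscle genes 9 were below 0 (median -0.16), and of the cardiac, lens and cornea lists 1 of 2, 3 of 3 and 1 of 4 tested genes were, in each with 0 under an unadjusted p of 0.05. The photoreceptor genes Gnat1 and Pde6a had estimates above 0, both 0.07 (SE 0.22 and 0.18), with Gnat1 between 6689 and 10474 CPM in WT and between 7255 and 10318 CPM in KO. Without the 3 libraries high in lens crystallins, a choice made after seeing the data, Cox6a2, Cox7a1 and Cox8b had log2 fold changes of -0.51, -0.39 and -0.66, and 0 of the 9 isoform genes had an unadjusted p under 0.05.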

How the data were processed

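The authors aligned 100-nt read pairs and assigned them to genes with RSEM 1.2.19 and Gencode M4, and deposited an expected count, which is not normalized, and an FPKM value per gene and library, the latter scaled by effective length and mapped fragments. Expected counts were rounded, and a gene was tested where 5 or more libraries reached 1 CPM. TMM factors and the likelihood-ratio test came from edgeR 4.0.16 (R 4.3.3), fitted on genotype alone, followed by Benjamini-Hochberg adjustment (threshold 0.1). The SE is the log2 fold change divided by the root of the likelihood ratio. Log2 CPM used a prior count of 2. At the lowest depth 1 CPM is 20.3 read pairs. FPKM entered no main test. With a pseudocount of 0.1 it was used in an alternative test of each isoform ratio. Scripts were tested on simulated data. Positions came from Gencode M21 on GRCm38, which matched 95.4% of identifiers.

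The genes and lists were chosen with earlier results of these data known. Named were all 9 isoform genes, the highest and lowest estimate of each complex IV list, the 5 (tissue isoforms) or 3 (others) genes with the highest r, up to 3 leading genes of each marker list, any with an unadjusted p under 0.05, and Xist. The other named genes (Trpm1, Mir211, Myh13, the remaining brown fat, cardiac and lens genes, the overlapping gene, Cox7b2 and Cox8c) were picked after their values were seen. The libraries are biological replicates per the study's methods, and which animals shared a litter is not given in the sources used here. Tried as alternatives were DESeq2 1.42.0, the quasi-likelihood test, other scalings and filters, a replicate block, the library series and leaving out each library. Libraries were matched to the series by proportional values over 63 genes. One marker list is not reported here as a whole.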

Additional observations from a re-analysis of the deposited data

Results flagged for a closer look

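Cox4i1, the widely expressed isoform of subunit 4, was at 228.3 CPM in KO replicate 1, and the other 5 KO libraries lay between 177.0 and 190.2 CPM. The gap took up 0.743 of the KO range, above the 95% limit of Dixon's test for 6 samples. It was the only such value among 26 sets of WT or KO libraries tested, and chance alone gives about 1 in 20. KO replicate 1 was also the KO library highest in Cox6a2, Cox7a1, Cox8b and the skeletal muscle genes.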

How the results depend on the processing

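The 1 gene past the threshold became 0 with the quasi-likelihood test of edgeR (446 genes had an unadjusted p under 0.05), 2 with DESeq2, 2 when genes with at least 1 count in any library were tested, 10 with the library series as a covariate, 38 within the age series and 7 within the mouse-number series. Leaving out 1 library gave 1 to 11, with 2 without WT replicate 2 and 11 without KO replicate 1. Of the 9 isoform genes, 1 had an unadjusted p under 0.05 by edgeR with the series covariate (Cox8b, beside 6.57% of all genes). Within the mouse-number series 2 did, beside 3.27% of all genes. Leaving out 1 library gave 0 to 2, with 2 without WT replicate 3 (beside 4.02% of all genes) and 2 without KO replicate 1 (beside 4.35%). The smallest adjusted p of any isoform gene under any setting was 0.571 (edgeR, series covariate). Cox4i2 turned above 0 at 0.0094 with upper-quartile scaling, 0.040 without TMM factors, 0.0013 with the looser filter, 0.0046 with the series covariate and 0.11 within the age series, and ran from -0.070 to 0.071 with 1 library left out. Cox7a2l turned above 0 at 0.023 without TMM factors and 0.020 within the mouse-number series, and ran from -0.083 to 0.035 with 1 library left out. The cause was not tested. The 4 isoform ratios kept their direction under all 19 alternatives each, but not all of these could change it. Exchanging genotypes within series keeps the main difference itself, and a ratio within a library hardly depends on TMM factors. The 5 numbered differences have the same mean as the comparison without KO replicate 6. None of the ratios had a p under 0.05 in the exact tests, which the 2 fits within a series and the 5 numbered differences could not reach.

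With the replicate number as a replicate block, which leaves out KO replicate 6, 10 genes passed the threshold, Cox6a2 (-0.58, unadjusted p = 0.0397 by edgeR) and Cox8b (-0.59, unadjusted p = 0.0134 by edgeR) were 2 isoform genes under 0.05 beside 2.71% of all genes, and Cox4i2 was at 0.0027. The deviations of same-numbered WT and KO libraries correlated at between -0.33 and 0.63. Their mean r was 0.22, against -0.04 for different-numbered libraries, and 4 of 10 libraries correlated best with their own number. These values do not settle whether the numbers mark pairs, and the main fit used no block. Sign flips of the 5 numbered differences, which allow no p under 0.0625, gave p = 0.438, 0.438, 0.125 and 0.312 (exact) for the Cox6a, Cox7a, Cox8 and Cox4i ratios.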

Other observations

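The genes most like each widely expressed isoform over the 11 libraries, by Pearson r of log2 CPM and as a description only, included other genes of the respiratory chain. They were Uqcrq of complex III (r = 0.99), Lipe and Thrsp for Cox4i1, Ndufv3 of complex I (0.97), Lmf2 and Il3ra for Cox6a1, and Cox6b1, Atp5h and Ndufb8 (each 0.99), of complex IV, ATP synthase and complex I, for Cox7a2. For Cox7a2l they were Cyb5a, Ces1d and Psmd1 (each 0.98), and for Cox8a Nbdy, Mrpl2 and Lamtor5 (each 0.95). Lipe and Thrsp, which act in the breakdown and synthesis of fat, ran from 13.04 to 56.4 and from 14.9 to 65.9 CPM, with an r of 0.98 to Cox4i1.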
